A study of Mus musculus with 10 samples.

Results

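The genes described here are the dermal adipocyte and lipid synthesis genes: secreted products of fat cells, proteins of the lipid droplet, the machinery of lipid uptake, breakdown and storage, and the enzymes and regulators of fatty acid synthesis. They were chosen by name, as 44 listed gene symbols, by a rule that uses no difference between the groups. The list itself was drawn up with earlier results of these data known. Its shares beside those of all genes are therefore descriptions only. A listed gene was represented by its brightest probe set among those annotated to that gene alone, and 40 of the 44 were measured, out of 18193 genes on the array. Plin1, Cfd, Adrb3 and Acsl1 were not analysed here.

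The samples were whole skin of C3H/HeJ mice that carried a graft of skin from alopecic C3H/HeJ donors, which transfers alopecia areata to the recipient. Baricitinib, an inhibitor of the Janus kinases JAK1 and JAK2, was delivered systemically, starting when the graft was placed, to 5 mice, and vehicle was given to 5 grafted control mice. All skin was sampled at week 12, and each of the 10 RNA samples was hybridised to 1 Affymetrix mouse array. All values below are log2 expression values, so a difference of 1 stands for a 2-fold change, and every difference is baricitinib minus vehicle. The labels gave neither age nor sex of a mouse, and no ungrafted mice were among these samples.

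In mouse skin a layer of white fat cells lies under the dermis and around the lower ends of the hair follicles, and it thickens and thins with the hair cycle. White adipocytes store fatty acids as triglyceride in a single large lipid droplet, release them again by lipolysis, and secrete hormones such as adiponectin and leptin. PPARG and C/EBPA are the transcription factors that drive and maintain this state. Fatty acid synthesis itself is shared with the sebaceous gland and the epidermis, and several genes of glucose and fat use are shared with the skeletal muscle that lies beneath the fat layer.

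The fat cell identity of the tissue was read from its own markers. Fabp4 averaged 13.20 ± 0.24 with baricitinib and 12.81 ± 0.45 with vehicle, and Adipoq averaged 11.28 ± 0.85 with baricitinib and 9.65 ± 0.61 with vehicle (SD, n = 5 each). Retn and Cidec were likewise measured on every array, and Lep had 7.01 to 9.37 with baricitinib and 4.31 to 6.52 with vehicle. Ucp1, which defines thermogenic brown and beige fat cells, was near the bottom of the scale at 4.70 ± 0.20 with baricitinib and 5.002 ± 0.35 with vehicle. On vehicle arrays 1 and 5 Lep, at 4.31 and 5.12, was below Ucp1, at 5.09 and 5.54. Whether Lep was above background there was not tested. In whole skin, more fat cells and more RNA of these genes per fat cell cannot be told apart.

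Promoter sequences of the adipokine genes Lep and Adipoq and of the fatty acid synthase gene Fasn are shown as examples of a hormone and of a lipid synthesis gene, picked from 5 promoters after the motif matches had been seen. They come from RefSeq on GRCm38.p6 and cover the 250 bases before the annotated transcription start, 5′ to 3′ on the gene's strand. Lep lies on the plus strand at chr6:29059971-29060220, Adipoq on the plus strand at chr16:23146286-23146535 and Fasn on the minus strand at chr11:120824548-120824797. Capitals mark matches, on either strand, to 7 short motifs.
Lep: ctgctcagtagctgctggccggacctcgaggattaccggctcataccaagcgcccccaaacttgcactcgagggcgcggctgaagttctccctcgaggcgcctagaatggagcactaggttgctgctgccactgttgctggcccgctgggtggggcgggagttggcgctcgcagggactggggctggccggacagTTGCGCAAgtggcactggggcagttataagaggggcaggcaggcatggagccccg
Adipoq: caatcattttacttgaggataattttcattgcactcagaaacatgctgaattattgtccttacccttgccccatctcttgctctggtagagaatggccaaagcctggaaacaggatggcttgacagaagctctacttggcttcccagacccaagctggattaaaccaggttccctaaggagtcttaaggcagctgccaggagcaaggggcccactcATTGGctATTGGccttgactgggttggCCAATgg
Fasn: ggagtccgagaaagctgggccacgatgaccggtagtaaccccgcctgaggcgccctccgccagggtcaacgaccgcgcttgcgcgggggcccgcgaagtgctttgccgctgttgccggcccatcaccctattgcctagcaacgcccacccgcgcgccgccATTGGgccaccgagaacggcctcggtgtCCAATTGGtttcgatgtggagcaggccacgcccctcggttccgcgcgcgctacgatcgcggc

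The 7 motifs were the CCAAT box spelled CCAAT, the TATA box spelled TATAAA, the C/EBP palindrome TTGCGCAA, the E-box CACGTG, the nuclear receptor hexamer AGGTCA, its direct repeat AGGTCANAGGTCA, which contains the hexamer, and the sterol response element TCACCCCAC. The Lep window held TTGCGCAA at 55 to 48 bases before the start, a word present in 0.164% of all 32851 promoters of the table. The Adipoq window held CCAAT 3 times, at 34 to 30 and 27 to 23 bases as the reverse complement and at 7 to 3 bases as written. The Fasn window held CCAAT at 90 to 86 bases as the reverse complement, at 62 to 58 bases as written and at 59 to 55 bases as the reverse complement, the last 2 overlapping. CCAAT was in 34.2% of the 38 promoters of the 29 members with an entry, against 33.8% of all promoters. The hexamer AGGTCA was in 10 of the 38 member promoters (26.3%) against 4607 of all 32851, TATAAA in 7.89% against 12.4%, and CACGTG in 7.89% against 6.02%. The direct repeat and the sterol element were in 0 member promoters, against 0.0335% and 0.496% of all. The windows of Sncg and Nnat, the others of the 5, held 0 matches to any of the motifs. A match is a description of letters in the window and not a measured binding site.

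Most of these genes had higher means with baricitinib, and none passed the test. By role, the median difference was 2.44 for droplet proteins, 1.48 for lipolysis, 1.22 for uptake and transport, 1.09 for secreted products, 1.04 for regulators, 0.79 for triglyceride assembly and 0.084 for fatty acid synthesis, and single genes of low and high difference occurred within a role. Differences between roles were not tested. Of the 40 genes, 35 had a positive difference (87.5%, against 50.3% of all genes) and the median difference was 0.92, against 0.0051 over all genes. The difference reached 1 log2 or more in 19 members (47.5%, against 7.02% of all genes). None was called at an adjusted p under 0.05 with limma over all probe sets, 0 of 40 members against 0.00% of all genes, and 0 of 40 without vehicle array 5, where 22 members were higher at an unadjusted p under 0.05 (55.0%, against 13.3%). At an unadjusted p under 0.05, 22 members were higher (55.0%, against 9.81%) and 0 were lower (against 6.22%). Every baricitinib array lay above every vehicle array in 8 members (20.0%, against 3.80%) and below in 0 (against 1.82%). Calls changed with the arrays used: 4 members were called higher without vehicle array 4 (against 0.967% of all genes), 1 without baricitinib array 5 (2.50%, against 0.0110%), 10 without vehicle arrays 4 and 5 (25.0%, against 10.9%), 11 without baricitinib and vehicle arrays 5 (27.5%, against 1.75%) and 17 with limma's array quality weights (42.5%, against 9.83%). The 8 without overlap were Lep, Cidec, Gpd1, Sncg, Pnpla2, Mlxipl, Thrsp and Fasn.

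**Figure D1:**
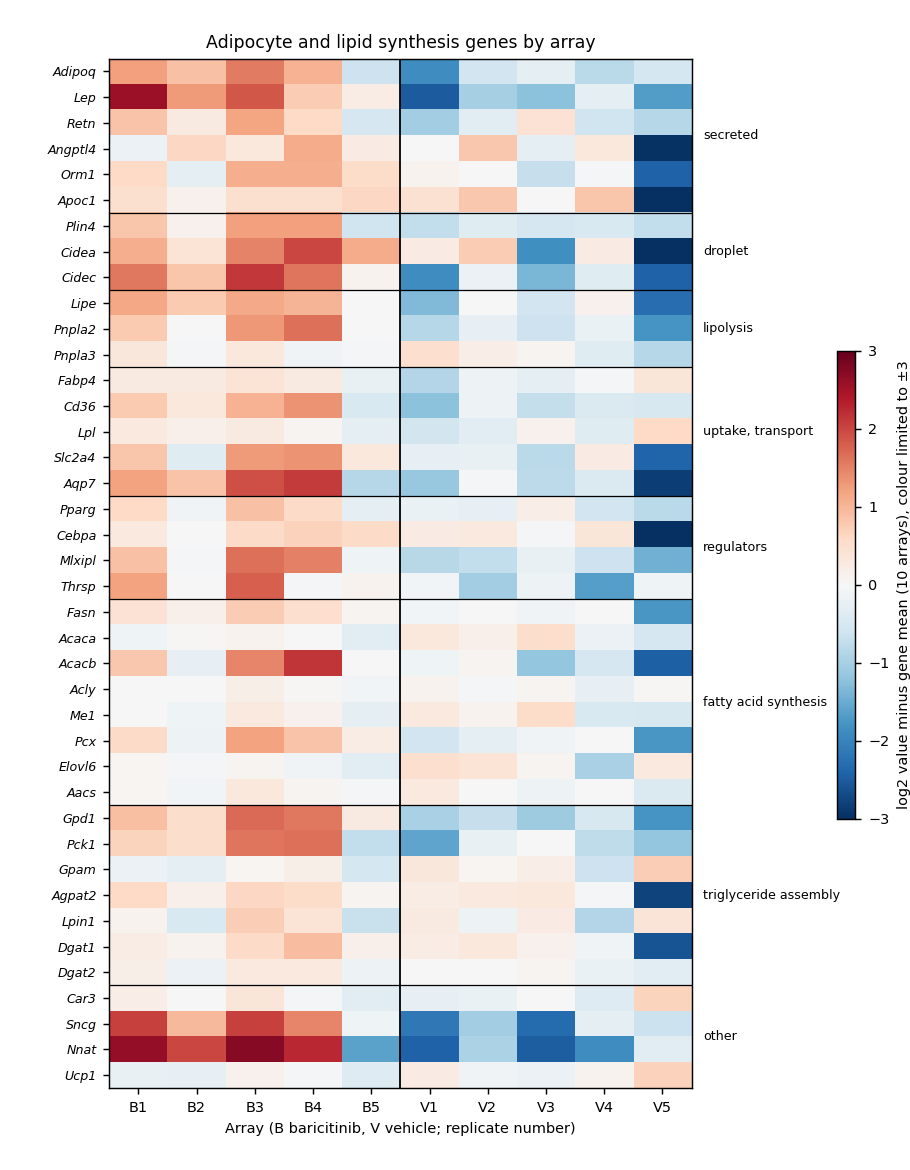
Log2 value of each of the 40 genes on each array minus that gene's mean over the 10 arrays, shown as colour limited to ±3 (B, baricitinib; V, vehicle; columns are arrays, rows are genes grouped by role). Baricitinib arrays 1, 3 and 4 are mostly red, baricitinib array 5 is paler, and vehicle array 5 is the darkest blue for many genes.

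The arrays differed in ways that touch these values. Vehicle array 5 stood apart, correlating at 0.697 to 0.729 with the other arrays, which correlated at 0.946 to 0.994 with each other. The gap between 3′ and 5′ probe sets of control transcripts, a sign of RNA degradation when large, was 0.99 to 1.18 log2 on the baricitinib arrays, 1.01 on vehicle array 4 and 1.998 to 4.35 on the other 4 vehicle arrays. RNA quality thus moved with the groups, and its part in the differences was not tested beyond the values given here. With the gap as a covariate the median difference of the members was 0.52, and 0.50 when vehicle array 5 was left out as well. Of the 19 members with a difference of 1 or more, 11 were still at 1 or more with the covariate, and 9 shrank by over 1.5 times: Cidec to 1.46, Aqp7 to 1.19, Pnpla2 to 0.84, Acacb to 0.74, Lipe to 0.72, Pcx to 0.58, Slc2a4 to 0.32, Orm1 to 0.29 and Cidea to 0.021. Without vehicle array 5 alone the median was 0.65, 33 of 40 members were higher (82.5%, against 42.8% of all genes) and 0 were called. On vehicle array 4, whose gap was like that of the baricitinib arrays, 26 of 40 members lay below every baricitinib array (65.0%, against 21.8% of all genes) and 13 lay within the baricitinib range (32.5%, against 59.3%).

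All 6 adipokines and other secreted products had higher means with baricitinib, with a median difference of 1.09. Lep encodes leptin, the hormone that reports fat stores to the brain. Its values were 9.37, 8.07, 8.66, 7.55 and 7.01 on baricitinib arrays 1 to 5 and 4.31, 5.79, 5.58, 6.52 and 5.12 on vehicle arrays 1 to 5. The lowest baricitinib array, the fifth, still exceeded the highest vehicle array, the fourth. The values on vehicle arrays 1 and 5 were below those of Ucp1 on the same arrays, and they carry no detection call. Lep averaged 8.13 ± 0.92 with baricitinib and 5.46 ± 0.82 with vehicle, a difference of 2.67 ± 0.50 (SE) or 6.36-fold, with a limma adjusted p of 0.221. Over the 10 fits that each left out 1 array, the adjusted p was 0.0375 without vehicle array 4, the only vehicle array with a 3′ to 5′ gap like that of the baricitinib arrays, and 0.0733 to 0.514 in the other 9.

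Adipoq encodes adiponectin, the most abundant hormone of fat cells. It measured 11.69, 11.34, 12.02, 11.51 and 9.83 on the baricitinib arrays and 8.60, 9.89, 10.16, 9.66 and 9.93 on the vehicle arrays. Baricitinib arrays 1 to 4 were all above the vehicle arrays, and baricitinib array 5 lay among them. The difference was 1.63 ± 0.43, or 3.10-fold, with a limma adjusted p of 0.226. It was 1.70 without vehicle array 5.

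The other secreted products separated less. Retn, which encodes resistin, had a difference of 0.96, and 0.86 without vehicle array 5. Orm1, an acute phase lipid carrier, had 1.21, and 0.76 without that array. For Angptl4, an inhibitor of lipoprotein lipase, and Apoc1, an apolipoprotein, the difference rested on that array. Angptl4 had 0.84 with all arrays and 0.20 without it, and Apoc1 had 0.89 with all arrays and -0.076 without it.

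**Figure D2:**
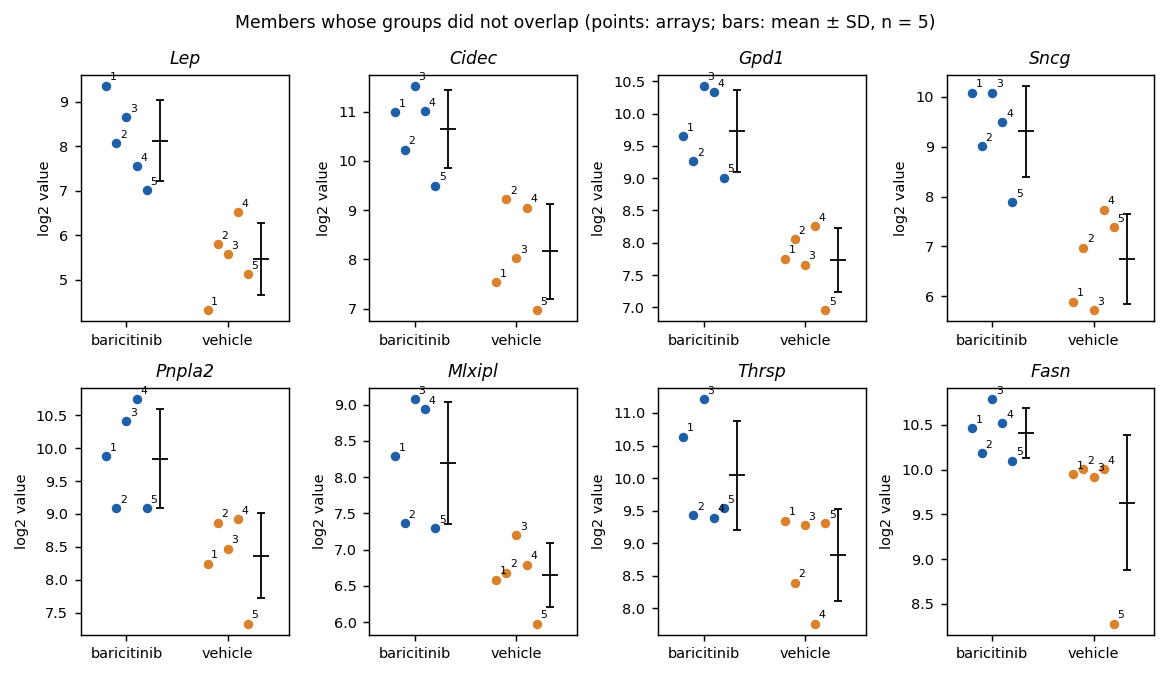
Log2 values of the 8 genes whose groups did not overlap, with baricitinib on the left and vehicle on the right of each panel (points, arrays with their replicate number; bars, mean ± SD, n = 5 each). Baricitinib array 5 is the lowest baricitinib point in Lep, Cidec, Gpd1, Sncg, Mlxipl and Fasn.

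The 3 measured droplet proteins were all higher, with a median difference of 2.44, and 1.37 without vehicle array 5. Cidec promotes the fusion of droplets into the single large droplet of white fat cells. Its values were 10.99, 10.23, 11.52, 11.01 and 9.50 with baricitinib and 7.54, 9.22, 8.03, 9.05 and 6.97 with vehicle. The groups did not overlap, although baricitinib array 5 and vehicle array 2 came within 0.3 of each other. The difference was 2.49 ± 0.51, or 5.61-fold, with a limma adjusted p of 0.221. The adjusted p was 0.0444 without vehicle array 4, whose gap was like that of the baricitinib arrays, and 0.0733 to 0.514 when another array was left out. With the gap as a covariate the difference was 1.46.

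Plin4 coats nascent droplets. It measured 10.19, 9.50, 10.59, 10.59 and 8.75 with baricitinib and 8.63, 8.99, 8.86, 8.90 and 8.62 with vehicle. The vehicle arrays lay close together and baricitinib array 5 fell among them. The difference was 1.12 ± 0.34, with a limma adjusted p of 0.237. Cidea, a relative of Cidec that in mice is also made by brown fat and sebaceous glands, had a difference of 2.44 that was 1.37 without vehicle array 5, where its value was 3.22, and 0.021 with the gap as a covariate.

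Lipolysis genes gave a median difference of 1.48. Pnpla2 encodes the lipase that takes the first fatty acid from a stored triglyceride. It measured 9.88, 9.08, 10.41, 10.75 and 9.09 with baricitinib and 8.24, 8.87, 8.47, 8.92 and 7.33 with vehicle. The groups did not overlap, with baricitinib arrays 2 and 5 nearest to vehicle. The difference was 1.48 ± 0.41, or 2.78-fold, with a limma adjusted p of 0.229.

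Lipe, the hormone-sensitive lipase that acts next, measured 8.49, 8.11, 8.46, 8.35 and 7.33 with baricitinib and 6.01, 7.31, 6.76, 7.45 and 5.04 with vehicle. Only baricitinib array 5 fell below a vehicle array, the fourth. The difference was 1.64 ± 0.46, with a limma adjusted p of 0.229. Pnpla3, a related protein found on droplets, had a difference of 0.17, and -0.018 without vehicle array 5.

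Uptake and transport genes were all 5 higher, with a median difference of 1.22. Cd36 encodes a fatty acid translocase that is also made by endothelial cells and macrophages. It measured 11.23, 10.76, 11.50, 11.80 and 9.999 with baricitinib and 9.21, 10.29, 9.73, 10.005 and 9.98 with vehicle. Baricitinib arrays 1 to 4 were above all vehicle arrays and the fifth was level with vehicle array 4. The difference was 1.22 ± 0.34, or 2.32-fold, with a limma adjusted p of 0.229.

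Aqp7 is the channel through which glycerol leaves the fat cell during lipolysis. It measured 6.86, 6.52, 7.59, 7.74 and 4.79 with baricitinib and 4.52, 5.58, 4.88, 5.23 and 2.82 with vehicle. Baricitinib array 5 again lay among the vehicle arrays. The difference was 2.09 ± 0.64, or 4.27-fold, with a limma adjusted p of 0.239. On vehicle arrays 1 and 5 Aqp7, at 4.52 and 2.82, was below Ucp1, at 5.09 and 5.54. Whether Aqp7 was above background there was not tested. The other Aqp7 probe set, with a mean of 4.83, had a difference of 0.66. Slc2a4, the insulin-responsive glucose transporter of fat and muscle, had 1.37, or 0.32 with the gap as a covariate, while the fatty acid carrier Fabp4 had 0.40 and lipoprotein lipase, Lpl, had 0.19.

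The 4 regulators were all higher, with a median difference of 1.04. Mlxipl encodes ChREBP, which turns on lipogenic genes when glucose is plentiful. It measured 8.29, 7.36, 9.08, 8.94 and 7.30 with baricitinib and 6.59, 6.68, 7.20, 6.79 and 5.98 with vehicle. The groups did not overlap, and baricitinib arrays 2 and 5 were close to vehicle array 3. The difference was 1.55 ± 0.39, or 2.92-fold, with a limma adjusted p of 0.224.

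Thrsp encodes Spot14, a nuclear protein induced with lipogenesis. It measured 10.64, 9.43, 11.21, 9.39 and 9.53 with baricitinib and 9.34, 8.39, 9.28, 7.77 and 9.31 with vehicle. The groups were separated by less than 0.1, with baricitinib arrays 1 and 3 well above the rest. The difference was 1.22 ± 0.45, with a limma adjusted p of 0.279.

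Pparg measured 8.86, 8.17, 9.14, 8.83 and 7.97 with baricitinib and 8.06, 8.01, 8.47, 7.69 and 7.46 with vehicle. The groups overlapped at baricitinib arrays 2 and 5. The difference of this master regulator of fat cells was 0.66 ± 0.28, with a limma adjusted p of 0.317. Cebpa had a difference of 0.86, and 0.21 without vehicle array 5.

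Of 8 genes of fatty acid synthesis 5 had higher means, with a median difference of 0.084 and a range of -0.14 to 1.66. Fasn encodes the synthase that builds palmitate. It measured 10.46, 10.18, 10.79, 10.52 and 10.10 with baricitinib and 9.95, 10.002, 9.92, 10.003 and 8.28 with vehicle. The groups did not overlap, yet 4 vehicle arrays were nearly level and only slightly below baricitinib array 5. The difference was 0.78 ± 0.34, with a limma adjusted p of 0.328, and it was 0.44 without vehicle array 5 and 0.27 with the gap as a covariate.

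On their brightest probe sets, the enzymes that feed or extend the product of Fasn did not share its separation. Acly, which makes cytosolic acetyl-CoA, had a difference of 0.048, and Acaca, which makes the malonyl-CoA for synthesis, had -0.13. Me1, a source of NADPH, had -0.0097, and the elongase Elovl6 had -0.14. Other probe sets of Elovl6 had 0.77 at a mean of 8.85 and 0.35 at a mean of 6.21. The other probe set of Me1 had 0.23 at a mean of 8.72, and that of Acaca had -0.40 at a mean of 3.93. Another Acly probe set, with a mean of 7.39, had 1.38, or 0.95 without vehicle array 5. It measured 7.98 to 8.18 with baricitinib and 4.96 to 7.83 with vehicle, without overlap. The 7.83 was on vehicle array 4, whose gap was like that of the baricitinib arrays, and the other vehicle arrays had 4.96 to 7.41. The part of RNA quality in this separation was not tested. Aacs, which activates acetoacetate for lipid synthesis, had 0.12. Acacb, the acetyl-CoA carboxylase whose malonyl-CoA restrains fatty acid oxidation and which is also abundant in muscle, had 1.66, and pyruvate carboxylase, Pcx, had 1.08.

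Among 7 genes of triglyceride assembly, 6 had higher means. Gpd1, glycerol-3-phosphate dehydrogenase, supplies the glycerol backbone. It measured 9.65, 9.26, 10.43, 10.33 and 9.004 with baricitinib and 7.75, 8.05, 7.66, 8.26 and 6.96 with vehicle. The groups were separated by more than 0.7, with baricitinib array 5 lowest and vehicle array 4 highest. The difference was 1.998 ± 0.34, or 3.99-fold, the smallest limma p of the members at 0.000143, with an adjusted p of 0.221. The adjusted p was 0.0372 without vehicle array 4, whose gap was like that of the baricitinib arrays, and 0.0733 to 0.514 when another array was left out.

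Pck1, which makes glycerol precursors from non-sugar carbon in fat cells, had a difference of 1.49 on its brightest probe set. Its other probe sets differed in sign. The one with a mean of 7.23 had -0.55, or -1.03 without vehicle array 5, and the one with a mean of 5.08 had 0.73. The acyltransferases and phosphatase of the assembly line had smaller ones: Dgat1 had 0.81 and Agpat2 had 0.79, both 0.26 or less without vehicle array 5, and Dgat2 had 0.18, Lpin1 0.051 and Gpam -0.29. The median of the 7 was 0.79 with all arrays and 0.20 without vehicle array 5.

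Genes abundant in fat cells but outside these pathways included the largest difference of the list. Nnat encodes neuronatin, a small endoplasmic reticulum membrane protein. It measured 9.71, 9.07, 9.81, 9.34 and 5.46 with baricitinib and 4.64, 6.13, 4.60, 5.22 and 6.74 with vehicle. Baricitinib arrays 1 to 4 stood more than 2 log2 above all vehicle arrays, while the fifth lay inside the vehicle range. The difference was 3.21 ± 0.82, or 9.26-fold, with a limma adjusted p of 0.224. On vehicle arrays 1 and 3 Nnat, at 4.64 and 4.60, was below Ucp1, at 5.09 and 4.68. Whether Nnat was above background there was not tested, so the size of its fold change is uncertain. The adjusted p was 0.0415 without baricitinib array 5, the one that lay inside the vehicle range, which supports nothing about the difference, and 0.0753 to 0.514 when another array was left out.

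Sncg encodes gamma-synuclein, which is abundant in neurons and in white fat cells. It measured 10.07, 9.01, 10.07, 9.49 and 7.89 with baricitinib and 5.89, 6.97, 5.72, 7.74 and 7.39 with vehicle. Baricitinib array 5 was only just above vehicle array 4. The difference was 2.56 ± 0.52, or 5.91-fold, with a limma adjusted p of 0.221. Vehicle array 4 was the vehicle array nearest to baricitinib here, and the adjusted p was 0.0414 without it and 0.0733 to 0.514 when another array was left out.

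Ucp1 measured 4.63, 4.60, 4.97, 4.82 and 4.48 with baricitinib and 5.09, 4.74, 4.68, 4.96 and 5.54 with vehicle. The groups overlapped and the difference was -0.30 ± 0.19, with a limma adjusted p of 0.437. Car3, carbonic anhydrase 3 of fat and muscle, had 0.075 on its brightest probe set.

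**Figure D3:**
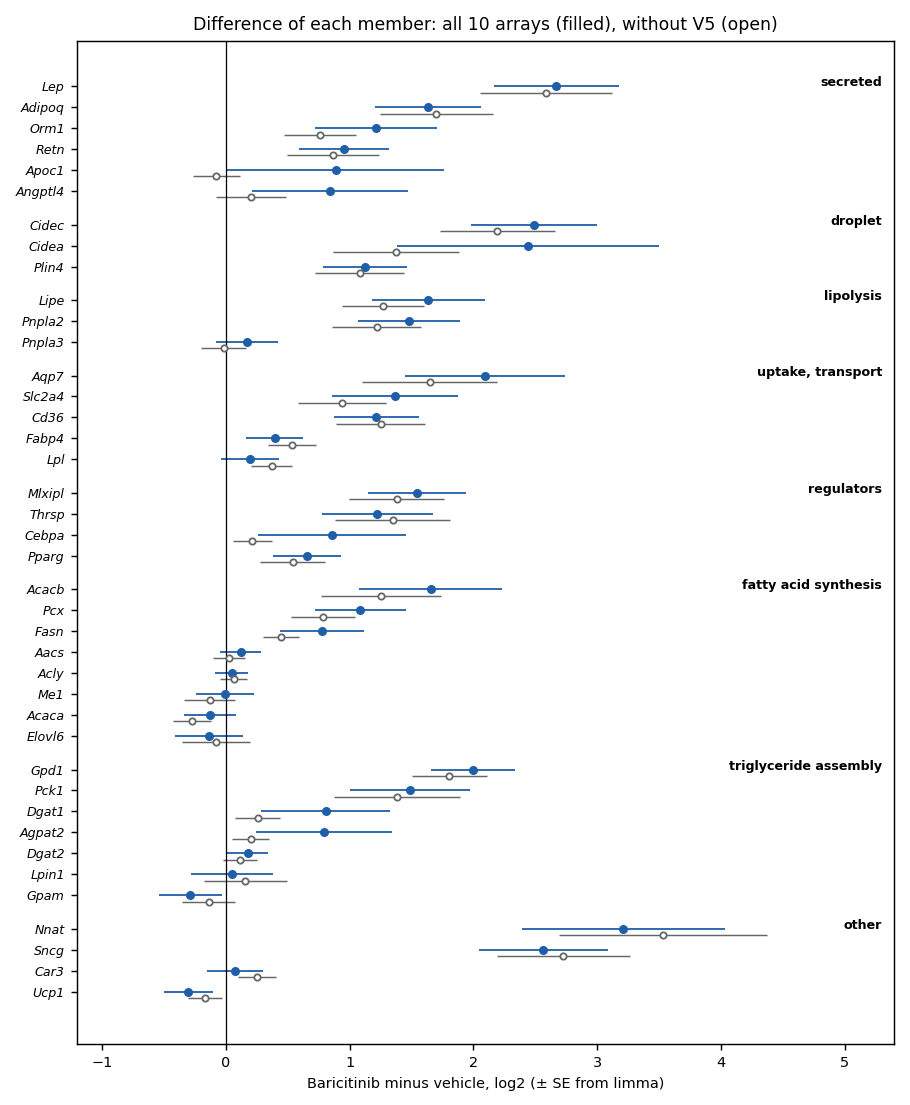
Baricitinib minus vehicle difference of each of the 40 genes in log2 (± SE from limma), with all 10 arrays as filled points and without vehicle array 5 as open points, grouped by role. With all arrays 35 genes lie right of 0, and 33 do without vehicle array 5, where Apoc1 lies at -0.076 and Angptl4 at 0.20.

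Baricitinib array 5 was the lowest baricitinib array in 26 of 40 members (65.0%, against 23.3% of all genes). Its median deviation from the gene means was -0.10, against 0.59, 0.072, 0.97 and 0.72 on baricitinib arrays 1 to 4 and -0.13 to -0.85 on the vehicle arrays, so that baricitinib array 2 was next to it. Endothelial markers had the same low array, which was the lowest baricitinib array in 7 of 10 of them, with a median deviation of -0.17. All of baricitinib arrays 1 to 4 lay above every vehicle array in 15 members (37.5%, against 5.53% of all genes). Markers of T cells, which carry the disease in this model, were also high on that array: their median deviation was 0.73 on baricitinib array 5, -1.38 to -0.26 on the other 4 baricitinib arrays 0.46 to 1.26 on vehicle arrays 1 to 4 and -0.86 on vehicle array 5. Their part in the lower adipocyte values was not tested.

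Several genes were read by more than 1 probe set, and their probe sets did not give 1 size of difference. The brightest Fabp4 probe set, near the top of the scale at 13.01, had a difference of 0.40, and the other 3 had 0.95, 1.38 and 0.91. The brightest Lpl probe set had 0.19 at a mean of 12.70 and the dimmer one had 1.55. For Car3 the brightest had 0.075 at a mean of 13.33, and the dimmer ones had 2.23, -0.72 and -0.076. Vehicle array 5 was the highest vehicle array on the brightest probe sets of these 3 genes, at 13.36, 13.30 and 13.99. Acly had 0.048 on its brightest probe set and 0.31 and 1.38 on the next ones, whereas the 3 probe sets of Cd36 gave 1.22, 1.45 and 0.90. Over the 22 members with several probe sets, 23 of 37 other probe sets had the sign of the brightest and 14 had the other sign, 6 of these 14 with a mean over 6 log2.

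**Figure D4:**
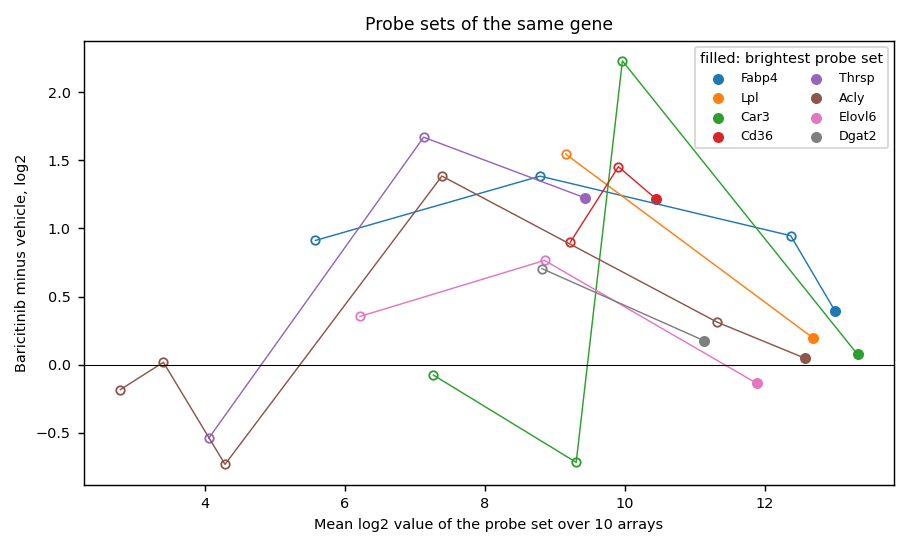
Baricitinib minus vehicle difference in log2 of every probe set of 8 genes against its mean log2 value over the 10 arrays (filled, the brightest probe set of the gene; lines join probe sets of 1 gene). The genes plotted were chosen after their values were seen, and the brightest Fabp4, Lpl and Car3 probe sets lie near the top of the scale at differences of 0.40, 0.19 and 0.075.

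Genes of the same pathways that are not on the list gave smaller shifts. Of 38 other adipocyte and lipid storage genes 28 were higher, 12 at an unadjusted p under 0.05, with a median difference of 0.54, or 0.27 without vehicle array 5. Haptoglobin, Hp, had 2.28 there and Cavin1, a coat protein of caveolae, had 2.08, and without vehicle array 5 they had 1.45 and 1.06. Of 20 other lipogenic and sterol genes 16 were higher with a median of 0.21, which was -0.0038 when vehicle array 5 was left out, where 9 were higher. Srebf2, the regulator of sterol synthesis, had 1.30 and Fads2, a fatty acid desaturase, had 1.22. Of 16 adipogenesis factors and progenitor markers 10 were higher with a median of 0.29, led by Dpp4 at 1.34 and Rxra, the nuclear receptor partner of PPARG, at 1.17. Of 10 brown and beige markers 7 were higher with a median of 0.57, led by Elovl3 at 1.88 and Ppara at 1.09. With the gap as a covariate Hp had 0.60, Cavin1 0.034, Srebf2 -0.005, Fads2 -0.69, Dpp4 0.69, Rxra 0.11, Elovl3 -0.32 and Ppara 1.33. No gene of these lists was called with limma over all probe sets.

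Markers of other cell types in the biopsy also differed in their values between groups, and their part in the differences was not tested. All 10 endothelial markers were higher with a median of 1.21, led by Tie1 at 1.72 and Pecam1 at 1.65. Of 16 skeletal muscle markers 14 were higher with a median of 0.85, led by Tcap at 2.02 and Ckm at 1.67. Of 10 fibroblast markers 9 were higher with a median of 0.70, led by Fbln1 at 1.97 and Dcn at 1.21. Without vehicle array 5 the medians were 1.07 for endothelial, 0.85 for muscle and 0.56 for fibroblast markers. With the gap as a covariate the same medians were 0.76, 0.33 and 0.26. In that fit Tie1 had 1.02, Pecam1 0.61, Tcap 0.18, Ckm 0.58, Fbln1 0.31 and Dcn 0.75. The median deviation of the endothelial markers was -0.17 to 1.34 on the baricitinib arrays and -1.52 to -0.21 on the vehicle arrays. That of the muscle markers was -0.17 to 1.02 on the baricitinib arrays and -1.05 to 0.24 on the vehicle arrays. That of the fibroblast markers was -0.012 to 0.89 on the baricitinib arrays and -0.84 to 0.095 on the vehicle arrays.

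Sebaceous gland markers, 8 of 10 higher, had a median of only 0.0545 and deviations of -0.11 to 0.22 on the baricitinib arrays and -0.26 to 0.32 on the vehicle arrays, with Scd3 at 1.93 and Far2 at 1.83 as the largest. Without vehicle array 5, 5 of 10 were higher and the median was -0.022. Macrophage markers were 6 of 10 higher with a median of 0.51, led by C1qa at 1.80 and Cd163 at 1.02. The 4 lower ones included Csf1r at -0.73 and C1qb at -0.40. Without vehicle array 5 the macrophage median was 0.12 and C1qa had 0.98. With the gap as a covariate the macrophage median was -0.29 and C1qa had -0.76. T cell markers were 1 of 9 higher with a median of -0.89, led by Cd8a at -3.80 and Zap70 at -1.48. Epidermal markers were 2 of 10 higher with a median of -0.33, led by Flg at -1.34 and Krt1 at -1.05. Genes of the growing hair follicle were 11 of 13 higher with a median of 0.38, led by Padi3 at 1.43 and Fgf5 at 1.24, but this rested on vehicle array 5: without it 5 of 13 were higher, the median was -0.069 and Padi3 had 0.33. With the gap as a covariate the median was -0.83. Their order across the baricitinib arrays was not that of the adipocyte genes: hair genes had deviations of -2.13 and -1.07 on baricitinib arrays 3 and 4, where the adipocyte genes had 0.97 and 0.72, and of 2.06 on baricitinib array 2, where the adipocyte genes had 0.072.

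**Figure D5:**
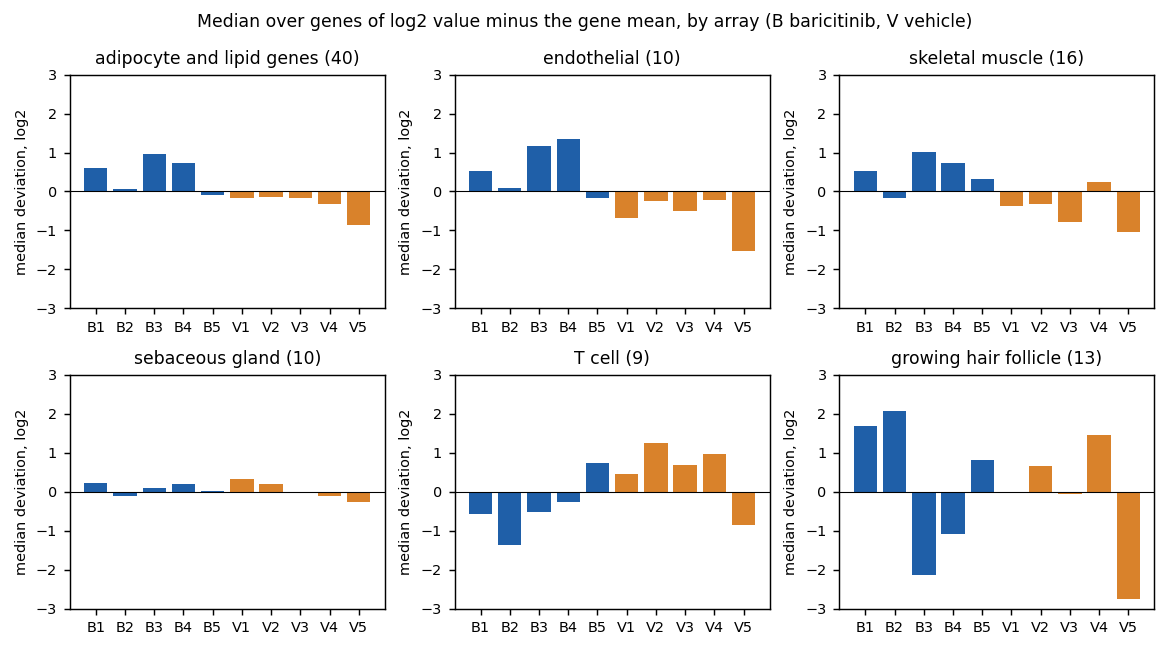
Median over the genes of a list of each gene's log2 value, centred on its own mean of the 10 arrays, by array (blue, baricitinib arrays B1 to B5; orange, vehicle arrays V1 to V5). The adipocyte and lipid genes are highest on B3 at 0.97 and lowest on V5 at -0.85, where the median over all genes was -0.44, and B5 at -0.10 is near the vehicle arrays.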

How the data were processed

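Log2 expression values per probe set were deposited by the authors, made with RMA per the submitters' processing notes (version not given in the sources used here). RMA corrects background, gives all arrays 1 distribution and summarises probes, so the mean of an array does not show a weak array (the 10 means were 6.43 to 6.45). Vehicle array 5 had an SD of 2.29 over its probe sets, against 2.71 to 2.79 on the other arrays. Of 45101 probe sets, 45037 remained for testing after removal of 64 controls. A single gene symbol was given by the platform annotation for 34945, several for 932 and no symbol for 9160. Only those with a single symbol were named, 1 probe set per gene, the one with the highest mean over all arrays. Groups and replicate numbers came from the sample titles.

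Groups were compared with limma 3.58.1 in R 4.3.3 (lmFit with eBayes, a two-sided test). P-values were adjusted after Benjamini and Hochberg across the 45037 probe sets, with a threshold of 0.05. The procedure had been tested on simulated data. The number of arrays, 5 in each group, limits the precision, and the study's methods give them as 5 mice in each. The study's methods removed 1 vehicle array that the labels do not name, so all 10 entered and each was left out in turn. The gene list, its roles and the other lists were chosen with earlier results of these data known. Every member was named. Values on every array were given for members whose groups did not overlap, then for those with the smallest p until 14 were reached, and for Adipoq, Lep, Pparg, Fasn and Ucp1. Of the other lists, the 1 or 2 genes with the largest difference were named, with Csf1r and C1qb added as lower macrophage markers. Alternatives covered normalization, a filter on dim probe sets, array weights, the 3′ to 5′ gap as a covariate, eBayes options, the choice of probe set, a replicate block and arrays left out. The gap as a covariate together with vehicle array 5 left out was added after the data had been seen. Promoter windows came from the RefSeq table, which matched 29 of 40 members. Another background correction and blocks for slide or scan were not run, as no scanner files were used here.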

Additional observations from a re-analysis of the deposited data

Results flagged for a closer look

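In 80 groups of 5 arrays, 1 gene in 1 treatment group each, the lowest or highest array was tested for a gap wider than Dixon's limit of 0.71 of the whole range. It was wider in 7, and chance gives about 1 in 20 groups. Baricitinib array 5 was far below the other 4 in Nnat, at 5.46, and in Fabp4, at 12.79. Vehicle array 5 was far below the other 4 in Apoc1 at 7.12, Cebpa at 8.89, Fasn at 8.28, Agpat2 at 5.44 and Dgat1 at 6.82. Of the 7, 5 lay on vehicle array 5, the array with the lowest correlations.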

How the results depend on the processing

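Across 22 alternatives and 879 pairs of member and alternative, 793 kept the direction and the side of the threshold, 43 passed the threshold, 0 lost it and 43 changed sign, with 27 members never changing sign. No member was called with all arrays under quantile normalization, cyclic loess, a filter at 5 log2, trended and robust eBayes, the mean of a gene's probe sets, removal of probe sets whose suffix (_x_at, _s_at) marks possible reading of other transcripts, or the covariate of the 3′ to 5′ gap. Array quality weights, which gave vehicle array 5 a weight of 0.03, called 9676 probe sets and 17 members (42.5%, against 9.83% of all genes in that direction). Without vehicle arrays 4 and 5, 11278 probe sets and 10 members were called (25.0%, against 10.9%), and without baricitinib array 5 and vehicle array 5, 1551 and 11 (27.5%, against 1.75%). Leaving out 1 array gave 0 to 848 called probe sets and 0 to 4 called members. The 848 and the 4 (Lep, Gpd1, Cidec and Sncg) came without vehicle array 4, and leaving out baricitinib array 5 gave 12 probe sets and 1 member, Nnat. The cause of these calls was not tested. Over 1 array left out, the median difference of the members ranged over 0.65 to 1.13.

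Changes of sign occurred in 13 members. Cyclic loess gave Pnpla3 -0.14, Acly -0.0492, Aacs -0.11, Lpin1 -0.24 and Dgat2 -0.017, and quantile normalization gave Lpin1 -0.0815. Weights gave Angptl4 -0.0888, Apoc1 -0.052 and Pnpla3 -0.012. The covariate gave Angptl4 -0.38, Apoc1 -0.81, Cebpa -0.21, Aacs -0.052, Me1 0.23, Elovl6 0.32 and Gpam 0.24. The covariate without vehicle array 5 gave Angptl4 -0.17, Apoc1 -0.50, Aacs -0.021, Acaca 0.043, Me1 0.30, Elovl6 0.33 and Gpam 0.21. Without vehicle arrays 4 and 5, Pnpla3 was -0.17, Acly -0.0101 and Lpin1 -0.095, and without baricitinib and vehicle arrays 5 Apoc1 was -0.12. The mean of probe sets gave Me1 0.11 and Elovl6 0.33, and removal of _x_at and _s_at sets gave Angptl4 -0.091. Over 1 array left out, Me1 ranged over -0.13 to 0.13, Lpin1 over -0.16 to 0.23, Car3 over -0.013 to 0.25, Acly over -0.0099 to 0.077, Apoc1 over -0.076 to 1.20 and Pnpla3 over -0.018 to 0.32, and the list medians ranged over -0.0038 to 0.30 for lipogenic and sterol genes, -0.022 to 0.16 for sebaceous markers and -0.069 to 0.998 for hair follicle genes.

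Same-numbered samples of the groups did not deviate together, with correlations of -0.23 to 0.089, so the numbers were not taken as pairs, and a fit with the replicate number as a block called 0 probe sets (5441 at an unadjusted p under 0.05) and 0 members. Background signal per probe set was not used here, so low values such as those of Ucp1 carry no detection call.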

Other observations

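Among the 38 other adipocyte and lipid storage genes, 5 had every baricitinib array above every vehicle array (against 3.80% of all genes). The same count was 3 of 10 for endothelial and 2 of 10 for fibroblast markers. It was 1 of 10 for sebaceous gland, 1 of 10 for macrophage and 0 of 16 for skeletal muscle markers. The 5 genes were singled out after their values were seen. Adig, adipogenin, averaged 9.10 ± 0.78 with baricitinib and 7.07 ± 0.57 with vehicle (SD, n = 5 each). Lepr, the leptin receptor, averaged 9.29 ± 0.32 with baricitinib and 8.23 ± 0.43 with vehicle. Irs1, which relays the insulin signal, averaged 9.92 ± 0.35 with baricitinib and 9.03 ± 0.23 with vehicle. Gpat3, a triglyceride assembly enzyme, averaged 11.12 ± 0.31 with baricitinib and 10.33 ± 0.26 with vehicle, and Slc27a1, a fatty acid transporter, averaged 11.96 ± 0.32 with baricitinib and 11.15 ± 0.51 with vehicle. None of the 5 was called with limma over all probe sets. Their differences were 2.04 for Adig, 1.05 for Lepr, 0.88 for Irs1, 0.79 for Gpat3 and 0.81 for Slc27a1. With the 3′ to 5′ gap as a covariate they were 1.33, 0.53, 0.81, 0.68 and 0.345, in the same order. Of the 16 adipogenesis factors and progenitor markers, 2 had every baricitinib array above every vehicle array. Dpp4, a progenitor marker, averaged 11.69 ± 0.21 with baricitinib and 10.35 ± 0.58 with vehicle. Nrip1, a nuclear receptor corepressor, averaged 10.65 ± 0.11 with baricitinib and 10.06 ± 0.27 with vehicle. Dpp4 had a difference of 1.34, or 0.69 with the gap as a covariate, and Nrip1 had 0.59, or 0.29. In the same list 1 gene, Ppargc1b, a coactivator of mitochondrial genes, had every baricitinib array below every vehicle array (against 1.82% of all genes). It averaged 7.12 ± 0.53 with baricitinib and 8.14 ± 0.15 with vehicle, a difference of -1.02, or -0.86 with the gap as a covariate.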
